A study of Homo sapiens with 12 samples.

Results

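The 10 genes described here encode the structural proteins of the desmosome that epithelial cells use to hold together: the desmogleins DSG2 and DSG3, the desmocollins DSC2 and DSC3, plakoglobin (JUP), the plakophilins PKP1, PKP2 and PKP3, desmoplakin (DSP) and periplakin (PPL). They were taken by gene symbol from a table of 38516 genes, and all 10 were present in each of its 12 libraries. The libraries were made from total RNA of KYSE150 and KYSE510 cells, established human lines of esophageal squamous cell carcinoma (ESCC), grown in RPMI-1640 with fetal bovine serum. In each line 3 control libraries stood beside 3 libraries of cells in which HCP5, a long noncoding RNA gene, had been silenced, which gives 4 groups of 3. The agent used for silencing and the treatment of the control cells are not given in the sources used here, and every library of a group came from 1 line.

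A desmosome is a patch of adhesion between neighbouring cells that anchors the keratin filaments of one cell to those of the next. Desmogleins and desmocollins are cadherins: they cross the plasma membrane and bind each other in the space between cells. Inside the cell, plakoglobin and the plakophilins, which are armadillo proteins, bind the cadherin tails and gather desmoplakin, and desmoplakin holds the keratin filaments. Periplakin belongs to the same plakin family and is also found in the cornified envelope of stratified epithelium. In the stratified squamous epithelium of the esophagus, the isoforms used change from the basal layer to the surface, and DSG3, DSC3 and PKP1 are typical of stratified tissue, while DSG2, DSC2 and PKP2 are also found in simple epithelia and in heart.

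The genes lie on 7 chromosomes of GRCh38, the build named in the submitters' processing notes. DSC3 (chr18:30990008-31042815), DSC2 (chr18:31058840-31102415), DSG3 (chr18:31447795-31478702) and DSG2 (chr18:31498043-31549008) share the desmosomal cadherin cluster, with the desmocollins on the minus strand and the desmogleins on the plus strand. DSP is at chr6:7541575-7586717, PKP1 at chr1:201283452-201332993, PKP2 at chr12:32790745-32896840, PKP3 at chr11:392614-404908, PPL at chr16:4882507-4960741 and JUP at chr17:41754604-41786931. Each of these spans, taken from the deposited table, overlapped the protein-coding gene of the same name in GENCODE release 29. Of the 10 genes, only DSG2 shared exon bases with another gene of the table, 171 bases with DSG2-AS1 on the opposite strand. Whether counting used strand is not given in the sources used here, so reads of DSG2 and DSG2-AS1 in those bases may not be separated.

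RefSeq promoters (GRCh38.p14) were at hand for 7 of the 10 genes, and 4 of them are shown because their levels set the contrasts described below: the neighbours DSG2 and DSG3, PKP1, which separated the lines most, and DSP, whose level in the control cells of both lines was nearly equal. The bases printed run 5′ to 3′ on the plus strand and end just before the first base of the gene in RefSeq or in the deposited table, whichever comes first. Capitals mark the E-box words CACCTG and CAGGTG and the GC box words GGGCGG and CCGCCC, and the TATA words TATAAA and TTTATA were searched too. The windows are chr18:31497927-31498042 for DSG2, chr18:31447491-31447740 for DSG3, chr1:201283256-201283451 for PKP1 and chr6:7541421-7541574 for DSP.
DSG2: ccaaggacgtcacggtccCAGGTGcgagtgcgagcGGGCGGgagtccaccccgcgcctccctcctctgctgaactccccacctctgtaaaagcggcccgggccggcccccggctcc
DSG3: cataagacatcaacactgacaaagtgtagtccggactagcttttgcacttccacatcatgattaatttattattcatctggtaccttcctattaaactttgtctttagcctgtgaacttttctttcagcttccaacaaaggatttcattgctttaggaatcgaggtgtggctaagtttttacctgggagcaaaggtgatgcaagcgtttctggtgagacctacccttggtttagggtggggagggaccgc
PKP1: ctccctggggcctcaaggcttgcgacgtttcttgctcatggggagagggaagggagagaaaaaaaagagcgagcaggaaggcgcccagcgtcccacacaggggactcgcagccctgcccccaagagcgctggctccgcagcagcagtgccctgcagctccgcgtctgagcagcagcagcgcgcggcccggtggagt
DSP: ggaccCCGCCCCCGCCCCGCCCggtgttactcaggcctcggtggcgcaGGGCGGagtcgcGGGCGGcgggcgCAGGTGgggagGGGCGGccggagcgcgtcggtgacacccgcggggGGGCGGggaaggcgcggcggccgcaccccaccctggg
In the 250 bases before the RefSeq start, DSP held 7 GC box words and 2 E-box words at 78% G and C, DSG2 held 2 of each at 75.2%, PKP1 held 1 GC box word and no E-box word at 67.6%, and DSG3 held neither at 42.8%. DSG2 and DSG3, whose genes are neighbours, thus differ in base composition, against a median of 58% over the RefSeq promoters. Of the 7 genes, which had 9 promoter entries, 5 held at least 1 GC box word in some entry, 4 an E-box word and 0 a TATA word. Counted per promoter, not per gene, the shares among 35116 promoters were 42.6%, 17.5% and 10.7%. A gene with more than 1 entry had more bases searched, so these counts and shares are unlike measures. A match is a run of letters and was not tested as a binding site.

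Levels are given as RPKM, the read number divided by exon length and by the library total, a unit per length that lets genes be set side by side. The libraries held 20035025 to 28202422 reads, and in KYSE150 every silenced library was deeper than every control. When libraries with the same replicate number were set side by side, HCP5 had the lower level in the silenced one in 6 of 6 cases. Its mean was 0.770 ± 0.0220 RPKM in control and 0.437 ± 0.133 in silenced KYSE150 cells, and 1.39 ± 0.470 and 0.801 ± 0.257 in KYSE510 (SD, n = 3), on 26 to 147 reads per library. Epithelial markers were summed over 8 genes (KRT5, KRT14, KRT6A, TP63, SOX2, CDH1, EPCAM and SFN). The sum ran from 1052 RPKM in a KYSE150 control to 2677 RPKM in a silenced KYSE150 library. KRT5 and SFN had the highest means of the 8 in each group. SOX2 was low in KYSE150, at a mean of 0.160 RPKM in control cells, and KRT14 stood at 5.60 ± 1.03 RPKM in KYSE510 controls. Of other cell types, 8 fibroblast markers summed to 0.0693 to 0.901 RPKM per library, and 6 leukocyte markers summed to 29.9 to 47.5 RPKM. Nearly all of that sum was CD68, a lysosomal gene also expressed outside leukocytes, with group means of 36.5 to 40.0 RPKM, while the defining gene PTPRC had group means of 0 to 0.00299 RPKM. The summed level of 4 endothelial markers was 0.0475 to 2.09 RPKM. Along the second principal component, which held 5.43% of the variance, the KYSE150 control replicate 3 lay at 13.0, while the other KYSE150 controls lay at -22.2 and -34.1 and the silenced libraries between -2.97 and 30.6. The KYSE150 changes of PKP1, PKP3, JUP and DSC3 are therefore also given without it.

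Desmoplakin and periplakin were the most abundant desmosome transcripts. In control KYSE150 cells DSP stood at 82.6 ± 6.03 RPKM (SD, n = 3), followed by PPL at 35.9 ± 6.13, DSG2 at 23.6 ± 1.87, JUP at 22.3 ± 8.90 and PKP2 at 17.6 ± 1.36. PKP3 (13.6 ± 4.17), DSC3 (11.99 ± 2.06), PKP1 (8.12 ± 1.39), DSG3 (3.06 ± 0.460) and DSC2 (1.42 ± 0.151) followed. DSP, PKP1, DSG3 and DSC2 each had a range that no other of the genes entered. JUP, with its wide spread, overlapped PPL, DSG2, PKP2 and PKP3, and PKP3 also overlapped PKP2 and DSC3, so these neighbours did not differ beyond their spread. DSG2 lay wholly above PKP2, PKP3 and DSC3. In control KYSE510 cells PPL (85.8 ± 5.49 RPKM) and DSP (82.2 ± 3.27) overlapped at the top, DSG2 (42.4 ± 3.06) overlapped JUP (41.3 ± 6.18), and PKP3 (19.2 ± 1.45) overlapped DSC3 (17.7 ± 1.90). DSG3 (5.48 ± 0.556), DSC2 (5.21 ± 0.336) and PKP2 (4.43 ± 0.462) formed a further overlapping run, and PKP1 (0.0746 ± 0.0442) came last. Summed over the 10 genes, the level was 220 ± 9.31 RPKM in control KYSE150 cells, 245 ± 26.5 in silenced KYSE150 cells, 304 ± 9.04 in control KYSE510 cells and 317 ± 14.5 in silenced KYSE510 cells.

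**Figure D1:**
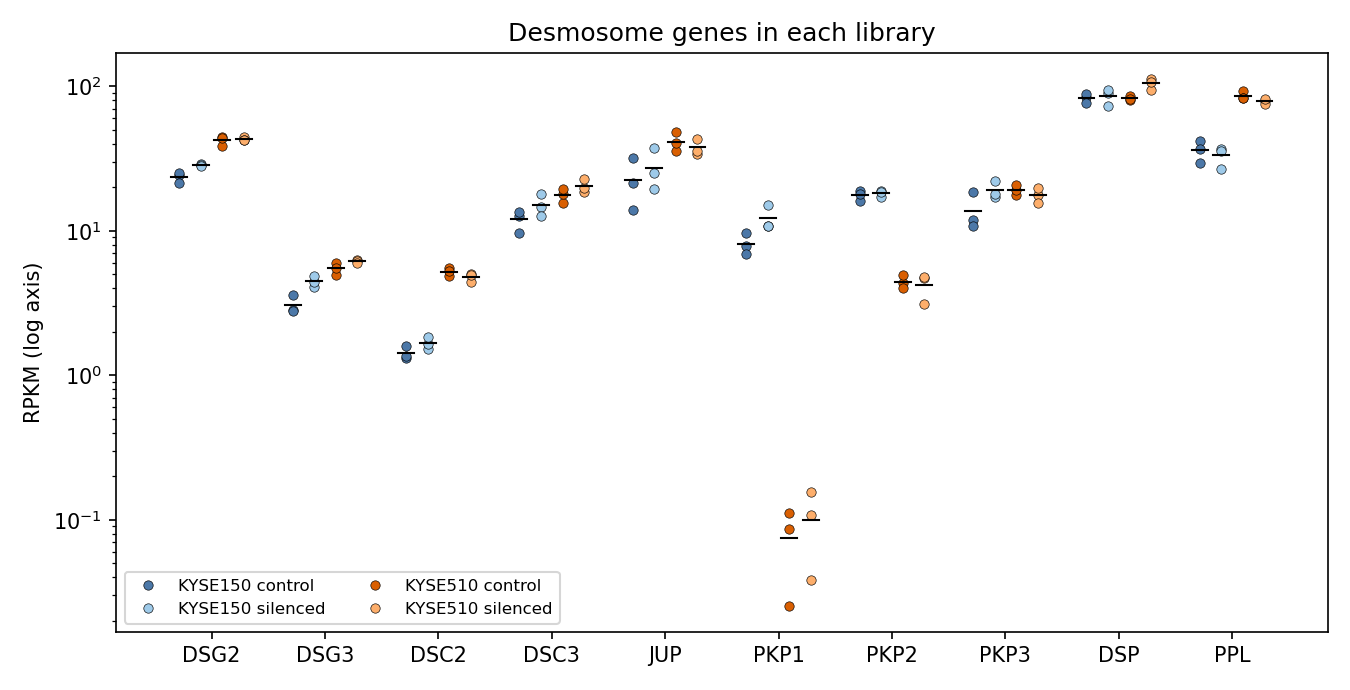
RPKM of each desmosome gene (log axis) in each of the 12 libraries, coloured by group; points are libraries and the black bar is the mean of a group of 3. DSP lies between 73.5 and 112 RPKM in all 12 libraries, while PKP1 lies between 6.92 and 15.1 RPKM in KYSE150 and is at most 0.155 RPKM in KYSE510.

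The first comparison set control KYSE510 against control KYSE150 cells. Of the 9 genes that reached 0.5 RPKM in every library of both lines, 8 differed: 7 were higher in KYSE510 (DSG2, DSG3, DSC2, DSC3, JUP, PKP3 and PPL) and PKP2 was lower. DSP was the exception, at -0.00 on the log2 scale (95% interval -0.23 to 0.22). PKP1 was present at this level in KYSE150 alone, so that it could pass the filter on low values only through the line where it is high. Its difference is given below as a description and is not counted. The test was limma on log2(RPKM + 0.5) with Benjamini-Hochberg adjustment over 17823 genes at a threshold of 0.05. Many tested genes differed between the lines under the same rule, with 28.3% called higher and 33.7% lower in KYSE510. The count of 7 higher and 1 lower of 9 is read against these shares. The median difference of the 9 genes was 0.75 on the log2 scale, and over all tested genes it was -0.07. Fewer cells with a transcript and less of it per cell cannot be told apart in these bulk libraries.

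Among the cadherins, the rise in KYSE510 was largest for DSC2. Its control libraries held 1.31, 1.59 and 1.36 RPKM in KYSE150 and 4.86, 5.53 and 5.23 RPKM in KYSE510. The lines did not overlap, and the difference was 1.57 (SE 0.09, limma adjusted p = 8.2e-08), a ratio of means of 3.67. DSC3 stood at 12.7, 9.66 and 13.6 RPKM in KYSE150 and 15.6, 17.9 and 19.4 RPKM in KYSE510. Again no KYSE150 control reached a KYSE510 control, with a difference of 0.55 (SE 0.15, limma adjusted p = 0.0091).

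DSG2, the desmoglein with the widest tissue range, held 24.2, 25.02 and 21.5 RPKM in KYSE150 controls and 38.8, 44.2 and 44.1 RPKM in KYSE510 controls. DSG3, the antigen of pemphigus vulgaris, held 2.82, 3.59 and 2.77 RPKM in KYSE150 and 4.91, 6.02 and 5.52 RPKM in KYSE510. The ratio of the line means was nearly the same for both, 1.80 for DSG2 (difference 0.83, SE 0.08, limma adjusted p = 2.7e-06) and 1.79 for DSG3 (0.75, SE 0.11, limma adjusted p = 9.0e-05). DSG1 and DSG4, the desmogleins of the upper epidermis and of hair, had a count of 0 in every library, which allows up to 3 reads in each. DSG3 therefore made up the same share of desmoglein RPKM in both control lines, 11.5% ± 1.07 in KYSE150 and 11.4% ± 0.467 in KYSE510 (SD, n = 3; exact two-sided permutation p = 1).

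The desmocollins were shared out differently. DSC3 made up 89.1% ± 2.82 of desmocollin RPKM in KYSE150 and 77.1% ± 1.34 in KYSE510 controls (SD, n = 3). No library of one line reached the other, and the exact two-sided permutation p was 0.1, the smallest that 3 against 3 can give. DSC1, the desmocollin of the outer epidermal layers, was at most 0.0426 RPKM in any library.

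**Figure D2:**
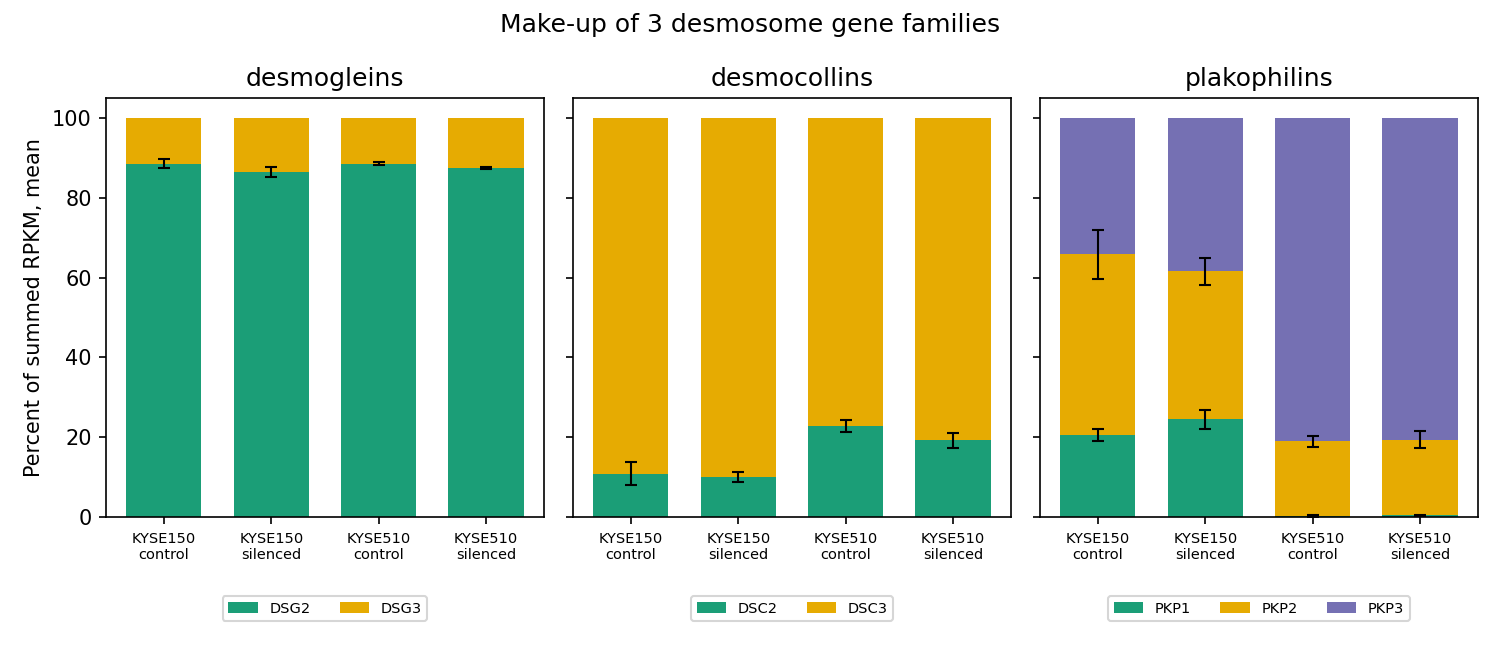
Mean percent of the summed RPKM of each family by group (3 libraries each); DSG1, DSG4 and DSC1, at or near 0, are not drawn, and PKP4 is not counted. Each error bar is the SD of the segment that the bar closes on its upper side. The DSG3 share is 11.4% to 13.5% in the 4 groups, DSC2 takes more of the desmocollins in KYSE510, and PKP3 takes about 81% of the plakophilins in KYSE510.

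The armadillo genes split the lines in both directions. PKP1, a plakophilin of stratified epithelium that strengthens desmosomes, held 7.80, 6.92 and 9.65 RPKM in KYSE150 controls and 0.0870, 0.0255 and 0.111 RPKM in KYSE510 controls. The latter rest on 13, 4 and 19 reads, and the former on 883 reads or more. The mean was 109-fold lower in KYSE510. On the log2(RPKM + 0.5) scale the difference was -3.90, a value the pseudocount compresses, and limma-voom on reads recovered from the RPKM gave -6.91. No test is given for it, for the reason above.

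PKP2, the plakophilin of simple epithelia and heart, was also lower in KYSE510. It held 16.1, 18.7 and 18.1 RPKM in KYSE150 controls and 4.37, 4.0004 and 4.92 RPKM in KYSE510 controls. The groups were far apart, with a mean 3.98-fold lower in KYSE510 (difference -1.88, SE 0.14, limma adjusted p = 4.2e-07). PKP3, which is found in most layers of stratified epithelium, went the other way: 11.8, 10.7 and 18.4 RPKM against 17.7, 19.2 and 20.6 RPKM. Its groups overlapped, since the KYSE150 control replicate 3 lay above the lowest KYSE510 control, and the difference was 0.51 (SE 0.18, limma adjusted p = 0.0250). That call was lost when any of 4 control libraries was left out (KYSE150 control replicate 1 or 2, KYSE510 control replicate 2 or 3), with adjusted p up to 0.101. Over all the alternatives PKP3 lost its call in 6 values, and no other gene lost a call between the control lines. Without the KYSE150 control replicate 3 the difference was 0.74.

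In KYSE150 controls PKP2 made up 45.3% ± 6.13 of the RPKM of PKP1, PKP2 and PKP3, PKP3 34.1% ± 5.29 and PKP1 20.6% ± 1.43 (SD, n = 3). In KYSE510 controls PKP3 made up 81.0% ± 1.504, PKP2 18.7% ± 1.34 and PKP1 0.312% ± 0.177. For the PKP1 share, too, the difference between the lines is a description without a test, since PKP1 reached the filter level in KYSE150 alone. The 3 plakophilins together summed to 39.4 ± 5.87 RPKM in KYSE150 and 23.7 ± 1.77 RPKM in KYSE510 controls.

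JUP, which encodes plakoglobin, a protein shared by desmosomes and adherens junctions, varied most among replicates. Its controls held 21.4, 13.9 and 31.6 RPKM in KYSE150 and 35.8, 40.1 and 48.0 RPKM in KYSE510. The lines did not overlap, and the difference was 0.94 (SE 0.28, limma adjusted p = 0.0121).

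The plakins parted from each other. DSP, the link to keratin, held 83.6, 88.0 and 76.1 RPKM in KYSE150 controls and 79.7, 85.9 and 81.1 RPKM in KYSE510 controls, ranges that overlapped almost fully (limma adjusted p = 0.97). PPL held 29.4, 41.6 and 36.9 RPKM in KYSE150 and 92.1, 82.3 and 83.0 RPKM in KYSE510. Every KYSE510 control was above every KYSE150 control, with a ratio of means of 2.39 (difference 1.26, SE 0.14, limma adjusted p = 1.2e-05). Differences of at least 1 on the log2 scale were called for PKP2, DSC2 and PPL, 3 of the 9 genes, while 21.1% of all tested genes reached that size.

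**Figure D3:**
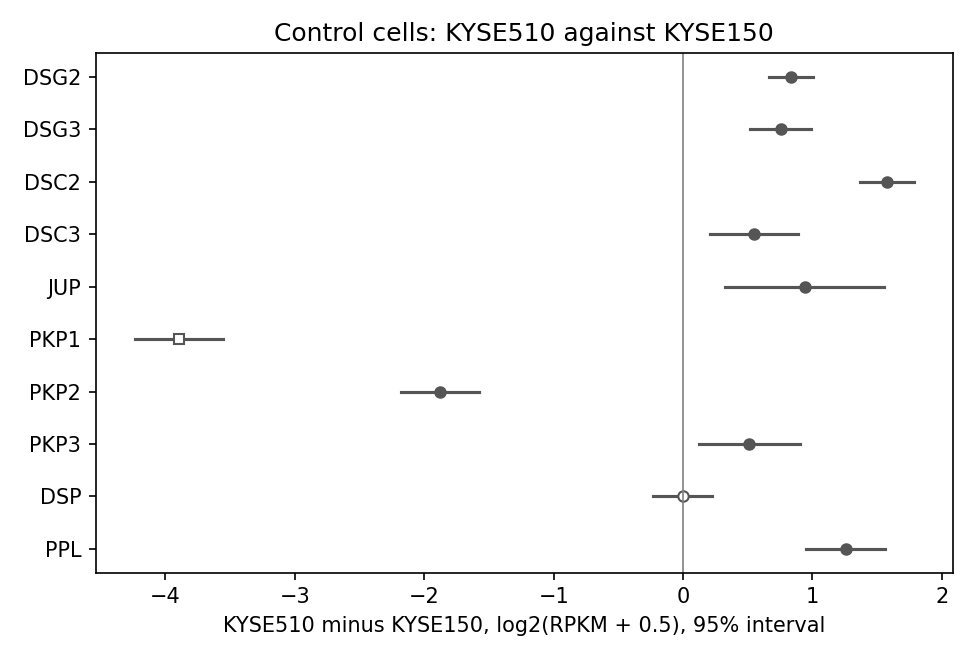
Difference between control KYSE510 and control KYSE150 cells on the log2(RPKM + 0.5) scale for each gene, with its 95% interval from limma; filled points passed the adjusted threshold of 0.05, and the open square is PKP1, for which no test is given. PKP1 (-3.90) and PKP2 (-1.88) lie left of 0, DSP lies on 0 with an open point, and the other 7 lie to the right.

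Genes around the desmosome differed between the control lines in both directions, as did all tested genes (28.3% higher and 33.7% lower in KYSE510), and the counts below are read against those shares. Of 7 further desmosome genes, 4 were tested: PERP, a membrane protein of desmosomes, was higher in KYSE510 (0.81 on the log2 scale), CDSN, which encodes corneodesmosin of the cornified layer, and EVPL, the plakin envoplakin that pairs with periplakin, were lower (-1.31 and -0.55), and PKP4 did not pass. EVPL thus went down where PPL went up: its means were 24.5 ± 1.01 RPKM in KYSE150 and 16.6 ± 1.20 RPKM in KYSE510 (SD, n = 3). CDSN shares 2394 exon bases with PSORS1C1 on the opposite strand, so its level is uncertain.

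Of 11 adherens junction genes 6 were higher and 1 lower in KYSE510, led by NECTIN4 (2.07), CDH1, which encodes E-cadherin (-0.61), and CTNND1 (0.58). Of 15 tight junction genes 5 were higher and 7 lower, among them TJP3 (2.97) and CLDN1 (2.92). Of 7 gap junction genes tested 3 were higher and 2 lower, among them GJA1 (3.94), the connexin with means of 1.70 ± 0.455 and 33.5 ± 8.20 RPKM (SD, n = 3). Of 14 keratins 6 were higher and 4 lower, led by KRT7 (6.81), KRT4 (3.84) and KRT19 (3.28). Of 15 genes that act on desmosomes 8 were higher and 2 lower, with EGFR at -1.70, ATP2A2 at 0.98 and ADAM9 at 0.97. Of 7 desquamation proteases and inhibitors tested 4 were higher and 2 lower, led by CTSV (-3.24), KLK10 (2.77) and KLK5 (-2.60). Beside these, 8 mesenchymal genes went both ways between KYSE150 and KYSE510 controls. The means were 19.4 and 3.37 RPKM for SNAI2, 3.69 and 0.00682 RPKM for TWIST1, 0.501 and 0.0445 RPKM for ZEB1 and 0.424 and 0.0122 RPKM for VIM. The other way went CDH2, which encodes N-cadherin (0.00953 and 4.78 RPKM), FN1 (2.60 and 5.39), SNAI1 (0.00963 and 0.494) and ZEB2 (0 and 0.0669). Their part in the desmosome differences was not tested.

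The second comparison asked how the genes stood in HCP5-silenced KYSE150 cells. None of the 10 passed the adjusted threshold in the fit without pairing, where 0.499% of all tested genes did. At an unadjusted p under 0.05, 4 were higher (DSG2, DSG3, PKP1 and PKP3), and 13.3% of all tested genes were. Limma-voom without the block called 0 of the 10 as well. The median change of the 10 genes was 0.29 on the log2 scale, beside 0.08 over all tested genes. Same-numbered control and silenced libraries deviated together, so a fit with the replicate number as a block was also made. In that fit 5 genes were called, all higher: PKP1, DSC3, PKP3, DSG3 and JUP, beside 5.04% of all tested genes called higher. Leaving out any same-numbered pair of KYSE150 brought the 5 calls to 0, and leaving out a pair of KYSE510 brought them to PKP1 alone. Centring each library on its median, which moved the median of all genes in this contrast by -0.13, also kept PKP1 alone in the blocked fit. The silenced KYSE150 libraries were deeper than the controls, and the part of depth was not tested.

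PKP1 showed the largest change in KYSE150. Its silenced libraries held 10.8, 10.8 and 15.1 RPKM, beside 7.80, 6.92 and 9.65 RPKM in the controls. Every silenced library was above every control, and the mean was 1.504-fold higher. The log2 change was 0.56, with an adjusted p of 0.123 in limma without the block (SE 0.15) and 0.0187 with it (SE 0.07). Over the alternatives the adjusted p ran from 0.00016 to 0.398. Without the KYSE150 control replicate 3 the change was 0.68 and passed without the block (limma adjusted p = 0.0383). It was 0.453 without control replicate 2 (limma adjusted p = 0.387) and 0.399 without silenced replicate 3 (0.398), and did not pass.

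PKP3 was at 17.2, 18.1 and 21.9 RPKM in silenced cells and at 11.8, 10.7 and 18.4 RPKM in controls. The groups overlapped through the control replicate 3, yet in each of 3 same-numbered pairs the silenced library was higher. The change was 0.50 (SE 0.18, limma adjusted p = 0.194; 0.0409 with the block; 0.0032 to 0.537 over the alternatives). Without the control replicate 3 it was 0.73 (limma adjusted p = 0.0259). It was 0.353 without control replicate 2 (limma adjusted p = 0.537) and 0.397 without silenced replicate 3 (0.531), and did not pass. PKP2, by contrast, held 17.2, 18.96 and 18.5 RPKM in silenced cells, close to its controls, with a change of 0.05 (95% interval -0.26 to 0.35), which turned negative when libraries were centred on their median.

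JUP held 25.1, 19.3 and 37.1 RPKM in silenced cells. The silenced library exceeded its same-numbered control by 3.63, 5.48 and 5.54 RPKM in the 3 pairs, while the replicates spanned 17.7 RPKM in controls and 17.8 RPKM in silenced cells. The change of 0.31 had a limma SE of 0.28 without the block (adjusted p = 0.58) and 0.06 with it (adjusted p = 0.0437), and the alternatives spanned 0.0083 to 1. It turned on single libraries: the change was 0.0101 without control replicate 2, 0.0586 without silenced replicate 3, 0.521 without silenced replicate 2 and 0.590 without control replicate 3 (limma adjusted p from 0.160 to 1).

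The cadherins leaned the same way, less so when libraries were centred on their median. Without the block, centring gave 0.35 for DSG3, 0.14 for DSG2, 0.18 for DSC3 and 0.05 for DSC2, and none passed. DSG3 held 4.08, 4.41 and 4.87 RPKM in silenced KYSE150 cells, all above its controls, with a mean 1.46-fold higher. Its change was 0.48 (SE 0.11, limma adjusted p = 0.0760; 0.0437 with the block; 0.0047 to 0.270 over the alternatives). DSG2 held 29.1, 28.4 and 27.9 RPKM in silenced cells, also above every control, with a mean 1.21-fold higher. Its change of 0.27 (SE 0.08) did not pass in limma either without the block (adjusted p = 0.129) or with it (0.0640).

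DSC3 held 14.5, 12.6 and 18.1 RPKM in silenced cells, overlapping its controls and higher in each same-numbered pair. Its change was 0.31 (SE 0.15, limma adjusted p = 0.308; 0.0388 with the block; 0.0060 to 0.730 over the alternatives). It was 0.173 without control replicate 2, 0.177 without silenced replicate 3 and 0.407 without control replicate 3. DSC2 held 1.52, 1.63 and 1.85 RPKM, with a change of 0.18 (SE 0.09, limma adjusted p = 0.342) that did not pass with the block either. Silenced libraries lay wholly above the controls for DSG2, DSG3 and PKP1, 3 of 10 genes, beside 13.7% of tested genes. They were higher in every same-numbered pair for 8 of 10 genes, beside 37.4% of tested genes.

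The plakins gave no call in KYSE150. DSP held 89.5, 73.5 and 93.7 RPKM in silenced cells, on both sides of its controls (change 0.05, 95% interval -0.18 to 0.27), and its sign turned when libraries were centred. PPL held 26.8, 37.0 and 35.8 RPKM, lower than the same-numbered control in each of 3 pairs, with a change of -0.11 (95% interval -0.42 to 0.19, limma adjusted p = 0.69; 0.220 with the block). The share of all tested genes that were lower in every pair was not counted. Within families, the PKP1 share of plakophilin RPKM was 24.5% ± 2.39 in silenced and 20.6% ± 1.43 in control cells (SD, n = 3; exact two-sided permutation p = 0.1, the smallest possible). The DSG3 share of the desmogleins was 13.5% ± 1.28 and 11.5% ± 1.07 (exact two-sided permutation p = 0.2), and the DSC3 share of the desmocollins was 89.9% ± 1.21 and 89.1% ± 2.82 (exact two-sided permutation p = 1).

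In KYSE510 cells none of the 9 genes with a resolved level passed in limma without or with the block, where 0.0393% and 0.112% of all tested genes did. PKP1, at trace level in this line, is not counted. In the fit without the block, DSP alone was higher at an unadjusted p under 0.05, beside 2.98% of tested genes. DSP held 94.2, 112 and 108 RPKM in silenced cells and 79.7, 85.9 and 81.1 RPKM in controls. The groups did not overlap, and the mean was 1.27-fold higher (change 0.34, SE 0.10, limma adjusted p = 0.458; 0.246 with the block). It passed only in limma-voom on recovered reads with the block (adjusted p = 0.0475, within 0.0475 to 0.813 over the alternatives), where 2.23% of tested genes were called.

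DSG3 in silenced KYSE510 cells held 6.31, 6.15 and 6.023 RPKM, the lowest just above the highest control of 6.016 RPKM, with a change of 0.16 (95% interval -0.08 to 0.40). Its share of the desmogleins was 12.5% ± 0.159 and 11.4% ± 0.467 in control cells (SD, n = 3; exact two-sided permutation p = 0.1, the smallest possible). DSC3 held 18.5, 19.6 and 22.9 RPKM, higher than its same-numbered control in each of 3 pairs (change 0.20, 95% interval -0.15 to 0.54). Its share of the desmocollins was 80.7% ± 1.94 against 77.1% ± 1.34 (SD, n = 3; exact two-sided permutation p = 0.2).

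DSG2 (44.5, 42.2 and 42.4 RPKM) and DSC2 (5.04, 4.45 and 4.94 RPKM) in silenced KYSE510 cells lay within or near their control ranges, with changes of 0.02 and -0.10. Among the armadillo genes, PKP1 stayed at trace level, at 0.107, 0.0381 and 0.155 RPKM on 16, 5 and 24 reads. Its share of plakophilin RPKM was 0.436% ± 0.214 (SD, n = 3), given as a description without a test. PKP2 held 4.73, 3.12 and 4.78 RPKM, PKP3 17.8, 15.5 and 19.8 RPKM and JUP 34.2, 35.8 and 43.1 RPKM. All 3 overlapped their controls, with changes of -0.08, -0.12 and -0.13. JUP was below its same-numbered control in each of 3 pairs, and the share of all tested genes below in every pair was not counted.

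PPL held 79.3, 75.8 and 81.5 RPKM, each below the lowest control of 82.3 RPKM, with a change of -0.12 (95% interval -0.42 to 0.18, limma adjusted p = 0.95; 0.418 with the block). The share of all tested genes that lay wholly below their controls was not counted. Silenced libraries lay wholly above controls for DSG3 and DSP, beside 5.22% of tested genes, and were higher in every same-numbered pair for DSC3, DSG3 and DSP, 3 of the 9 genes with a resolved level there, beside 16% of tested genes. PKP1 was higher by 1 to 5 reads in each pair and is not counted. The median change of the 9 genes in KYSE510 was -0.08, beside -0.02 over all tested genes.

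**Figure D4:**
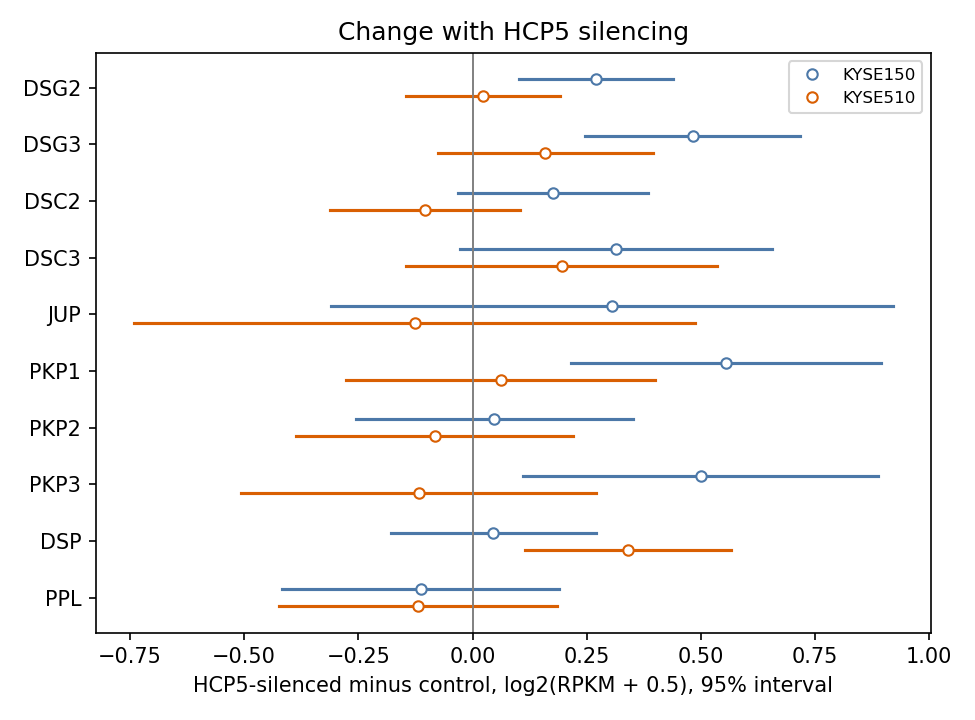
Change with HCP5 silencing on the log2(RPKM + 0.5) scale for each gene in KYSE150 (blue) and KYSE510 (orange), with 95% intervals from limma without the replicate block. All points are open, since none passed the adjusted threshold of 0.05; PKP1 (0.56), PKP3 (0.50) and DSG3 (0.48) lie farthest right in KYSE150, and DSP (0.34) in KYSE510.

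The difference between the changes in the lines was tested for each gene. Of the 9 genes with a resolved level in both lines, none passed in limma without or with the block. The share of all tested genes called was 0% in both fits. At an unadjusted p under 0.05, 2 of the 9, PKP3 and DSG2, had a difference without the block, beside 12.2% of tested genes. The median difference (KYSE510 minus KYSE150) of the 9 genes was -0.25, beside -0.12 over all tested genes. Among the 9, the largest differences were those of PKP3 (-0.62, SE 0.25, limma adjusted p = 0.396 without and 0.117 with the block) and JUP (-0.43, limma adjusted p = 0.609 and 0.117). Centring each library on its median, without the block, brought them to -0.46 and -0.28. PKP1 is not counted. Its value of -0.49 holds only on the log2(RPKM + 0.5) scale, on which its trace level in KYSE510 can hardly move. Limma-voom without the block gave -0.12 for PKP1 (95% interval -1.65 to 1.42, adjusted p = 0.954). In limma-voom with the block, JUP (adjusted p = 0.0248) and PKP3 (0.0220) passed, beside 7.6% of tested genes, and no other of the 9 genes did. Over the alternatives the adjusted p of the difference ran from 0.0248 to 0.906 for JUP and from 0.0220 to 0.670 for PKP3. Averaged over the lines, none of the 9 genes passed without the block, beside 0.539% of tested genes. At an unadjusted p under 0.05, 4 of the 9 (DSC3, DSG2, DSG3 and DSP) were higher, beside 7.87%. With the block, DSC3 (0.25, limma adjusted p = 0.0372; 0.0033 to 0.689 over the alternatives) was called higher, beside 2.06% of tested genes. PKP1 also passed (0.31, limma adjusted p = 0.0305), but this average includes a line where it is at trace level, and limma-voom with the block did not call it (adjusted p = 0.0820; 0.0305 to 0.668 over the alternatives). DSG3 (0.32) did not pass in limma with the block (adjusted p = 0.0693). It passed in limma-voom with the block (adjusted p = 0.0072, within 0.0072 to 0.258 over the alternatives). The control libraries of a line enter both its silencing contrast and the comparison of the lines.

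Around the desmosome, silencing in KYSE150 gave 1 call without the block over the lists named above: NECTIN1, an adherens junction adhesion gene, rose from 9.33 ± 1.59 to 14.9 ± 1.90 RPKM (SD, n = 3; change 0.65, SE 0.12, limma adjusted p = 0.0412; 0.0084 with the block). With the block, all calls in these lists were higher, beside 5.04% of all tested genes. They were 1 of 4 further desmosome genes (PERP, 0.51, limma adjusted p = 0.0357), 2 of 11 adherens junction genes (NECTIN1 and CTNNB1, which encodes beta-catenin, 0.43), 0 of 15 tight junction genes, 4 of 7 gap junction genes (GJB5 and GJA1 among them, 0.69 and 0.63), 5 of 14 keratins, 0 of 15 genes that act on desmosomes and 1 of 7 desquamation genes (SPINT2, 0.42). The basal and wound keratins KRT14 (2.09), KRT16 (1.09) and KRT6A (0.94) led the keratins, whose near-identical copies can share reads. The mean of KRT14 in KYSE150 was 44.2 ± 32.2 RPKM in control and 195 ± 151 RPKM in silenced cells (SD, n = 3; limma adjusted p = 0.0079 with the block). In KYSE510 no gene of the lists passed without the block, and with it KRT14 alone did (1.53, limma adjusted p = 0.0395), from 5.60 ± 1.03 to 17.04 ± 2.65 RPKM (SD, n = 3).

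Within each line the 10 genes did not vary as one block. Over the 6 libraries of KYSE150, the 45 pairwise Pearson correlations of log2 levels had a median of 0.362 and ran from -0.388 to 0.938. PKP1 and PKP3 (0.938), DSC2 and DSG3 (0.934) and DSC3 and JUP (0.927) were the closest pairs. In KYSE510 the median was 0.262, from -0.910 (DSG3 and PPL) to 0.821 (JUP and PKP3). The libraries of a line share its culture groups and their depths, so these values are descriptions over 6 points. DSC3, JUP, PKP1 and PKP3 were each highest in the replicate 3 library in 4 of 4 groups, and so was PERP. In DSG2 this held in 0 of 4 groups, in DSC2, DSG3, DSP and PPL in 1 and in PKP2 in 2. How many of all tested genes had this pattern was not counted, so it is not read as particular to these genes.

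**Figure D5:**
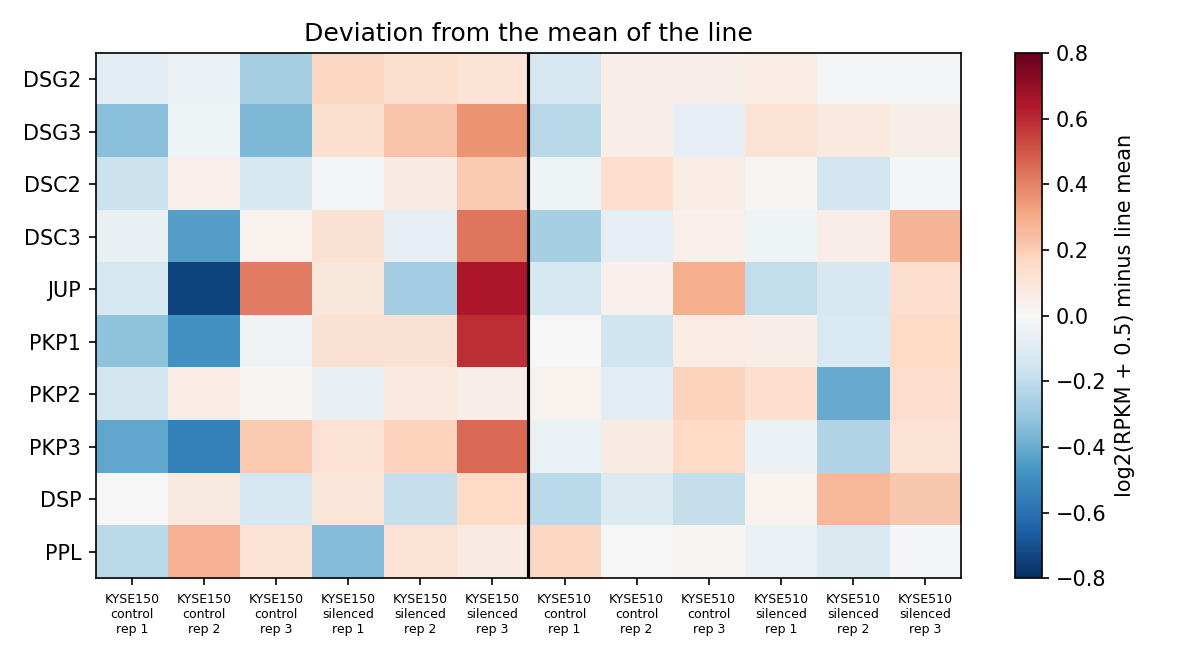
Each gene's log2(RPKM + 0.5) minus the mean of its line, by library, from blue (lower) to red (higher); the black line parts KYSE150 (left) from KYSE510 (right). JUP, PKP1, PKP3 and DSC3 are reddest in silenced KYSE150 replicate 3 and bluest in control replicate 2, and the KYSE510 columns are paler.

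The genes outside the group whose levels ran most nearly with the mean log2 profile of the 10, over the 12 libraries after the mean of each line was subtracted, were LRCH1 (Pearson r = 0.966), RNF217 (0.954), TNPO2 (0.952), ATXN7L3 (0.950) and FAM83A (0.948). The r of these genes was 0.964 to 0.992 within KYSE150 and 0.729 to 0.903 within KYSE510. They were picked for the highest r among all tested genes, so the values are descriptions. The mean profile includes PKP1, which is at trace level in KYSE510. FAM83A differed in level between the lines, with means of 1.67 RPKM in KYSE150 and 17.2 RPKM in KYSE510, and LRCH1 had 4.01 and 1.68 RPKM.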

How the data were processed

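RNA of 12 libraries in 4 groups of 3 was measured by RNA-seq. The deposited RPKM table, with gene spans and lengths in the column layout of a read counter per the file headers, was used as it stood. HISAT2, DESeq and GRCh38 are listed in the submitters' processing notes; their roles and settings, the annotation release and the use of strand are not given in the sources used here. RPKM multiplied by gene length gave whole reads for 100% of values above 0 (within 0.001 read).

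The genes fitted, 17823 with all 10 desmosome genes among them, reached 0.5 RPKM in 3 or more libraries. They were fitted as log2(RPKM + 0.5) with limma 3.58.1 (R 4.3.3), with 4 group means, a variance trend and 8 residual degrees of freedom. P-values were adjusted by Benjamini-Hochberg over all of them, with a threshold of 0.05, and intervals are at 95%. Log2 changes understate the change of low genes. The script was tested on simulated data. Family shares were compared by exact permutation (smallest p 0.1), with no test given for the PKP1 share between the lines or within KYSE510.

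The labels do not say that replicates came from separate cultures, so p-values measure the spread between these libraries, which may be technical. No pair of replicates agreed within sampling noise. Replicate numbers come from the sample titles. Same-numbered control and silenced libraries deviated together in 6 of 6 pairs (correlation across genes 0.147 to 0.415; other-numbered pairs -0.385 to 0.184), so a fit with a block per line and number is given where it changed a call. Alternatives were other pseudocounts, filters and scalings, the block, limma-voom on recovered reads and leaving out each library.

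The desmosome genes and all lists were chosen with earlier results of these data known. All 10 genes are named, with at most the 3 genes of each list with the largest change among those called (some are not reported here), and the 5 genes most correlated with the mean profile. Genome positions come from the deposited table, and promoters from RefSeq.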

Additional observations from a re-analysis of the deposited data

Results flagged for a closer look

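JUP, which encodes plakoglobin, moved in opposite directions in the lines: silenced libraries exceeded their same-numbered controls in 3 of 3 pairs of KYSE150 and fell short of them in all 3 of KYSE510, and 10.2% of tested genes moved oppositely in every pair. The difference of the changes (KYSE510 minus KYSE150) was -0.43 on the log2 scale (95% interval -1.30 to 0.44). It did not pass in limma (adjusted p = 0.609; 0.117 with the replicate block) and passed in limma-voom with the block (adjusted p = 0.0248, within 0.0248 to 0.906 over the alternatives). Leaving out 1 library moved it from -0.717 (without KYSE150 control replicate 3) to -0.137 (without KYSE150 control replicate 2). Centring each library on its median, without the block, gave -0.28 for JUP. Over all tested genes the median difference was -0.12 without centring.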

How the results depend on the processing

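Of 310 alternative values for the 10 genes in KYSE150, 280 kept the direction and side of the threshold, 19 newly passed and 11 reversed; in KYSE510 the counts were 302, 1 and 7 of 310. Between control lines 198 of 210 were kept, 6 lost their call, all of them for PKP3, and 6 reversed. The 210 values and the 310 in KYSE510 include those of PKP1. Its difference between the lines is otherwise given only as a description, and in KYSE510 it stood at trace level. The replicate block has no paired value for the comparison of lines. It called 5 genes in KYSE150 (0 without it) and 2 averaged over lines (DSC3 and PKP1, the latter at trace level in KYSE510). It changed no other count of calls of the 10 genes. Settings chosen after the data were seen called, in KYSE150, 6 genes (limma-voom with the block), 2 (block with quantile normalization) and 1 (block with median centring, or without any same-numbered KYSE510 pair). Limma-voom with the block called 1 gene in KYSE510, 2 averaged over lines and 2 for the difference, and block with quantile normalization called 2 averaged over lines. Leaving out each library gave 0 to 2 calls in KYSE150 (2 without control replicate 3) and 0 in KYSE510, averaged and for the difference.

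Reversals met uncalled values only. In KYSE150, DSP was -0.0837 with median centring (with or without the block) and -0.0808 with the block without pair 3, and -0.0234 to 0.151 when a library was left out. PKP2 was -0.0815 with centring and -0.0237 with quantile normalization, each with or without the block, and -0.0142 to 0.0910 without a library. PPL ranged from -0.249 to 0.0318 without a library. In KYSE510, DSG2 was -0.0616 with the block without pair 1 (-0.0374 to 0.0549 without a library), PKP1 ranged from -0.00429 to 0.138, and PKP2 was 0.0324 with the block without pair 2 (-0.176 to 0.0962 without a library). DSP between control lines was 0.0252 with centring, 0.132 with quantile normalization and -0.0617 to 0.0425 without a library. Leaving out a library, the difference between control lines in the DSG3 share of desmoglein RPKM ran from -0.541 to 0.524 percentage points, and the change in DSC3 share of desmocollin RPKM, silencing in KYSE150, from -0.875 to 1.61. The cause was not tested.

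The planned edgeR and DESeq2 fits were not run, since the deposited unit is RPKM. PKP1 in KYSE510 rests on 4 to 24 reads a library, so changes in its level there are poorly resolved.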
